A study of Mus musculus with 8 samples.

Results

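The cohesin complex and the DNA-binding protein Ctcf were followed at the level of RNA in LSK cells of mice with and without Asxl2. The 10 genes were taken by name: the core subunits Smc1a, Smc3, Rad21, Stag1 and Stag2, the loader Nipbl, the release factor Wapl, its partners Pds5a and Pds5b, and Ctcf. All 10 were found among the 47311 genes matched to an annotation, and all 10 were among the 25543 genes that passed a filter on low counts. LSK cells are bone marrow cells without lineage markers that carry Sca1 and Kit, a gate that holds blood stem cells and multipotent progenitors. They came from 8 mice in 4 groups of 2: young Asxl2 wild type (WT), young Asxl2 knockout (KO), old WT and old KO. The young groups were aged 8 to 12 weeks and the old groups more than 1 year. Each KO mouse has a WT littermate, which makes 4 litters, and each of the 2 batches holds 1 mouse of every group. Strain and the design of the knockout allele were not given in the sources used here. Values of a group are given below with the batch 1 mouse first and the batch 2 mouse second.

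Cohesin is a ring of proteins that holds sister chromatids together until they part at cell division and that forms loops along the chromosome between divisions. Smc1a and Smc3 form the arms of the ring, Rad21 closes it, and either Stag1 or Stag2 sits on Rad21. Nipbl, with its partner Mau2, loads the ring and drives its movement along DNA, Wapl opens it with the help of Pds5a or Pds5b, and Ctcf bound to its sites halts the moving ring. In blood, cohesin genes are known for the loss-of-function mutations that recur in myeloid leukemia, STAG2 among them.

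The genes lie on 7 chromosomes (GRCm38, the mm10 build): Smc1a at chrX:152016428-152062694 and Stag2 at chrX:42149317-42277185, Smc3 at chr19:53600398-53645833, Rad21 at chr15:51962240-51991747 and Nipbl at chr15:8290617-8444463, Stag1 at chr9:100597798-100959375, Wapl at chr14:34673928-34747983, Pds5a at chr5:65605721-65698273 and Pds5b at chr5:150673739-150810690, and Ctcf at chr8:105636568-105682922. Rad21, Nipbl and Pds5a are on the minus strand and the others on the plus strand. Values are sums over all transcripts of a gene, unless a transcript is named.

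Library totals lay between 45737972 and 80388500 estimated counts. Asxl2 itself was at 23.0 to 30.8 TPM (a level scaled for transcript length and library size) in the 4 WT and at 4.63 to 5.63 TPM in the 4 KO libraries. All 8 gate genes, Kit and Ly6a (Sca1) among them, were above 1 TPM in every library; in KO mice 3 of the 8 fell and 3 rose, and 4 fell in old mice. The summed level of 6 T and NK cell markers was 562.7 to 806.3 TPM in KO and 298.8 to 414.5 TPM in WT libraries, nearly all of it Nkg7. Of the rest, Klrb1c was at 5.13 to 12.7 TPM, Cd4 at 1.35 to 4.31 TPM and Cd3g at 0.0721 to 2.98 TPM. Cd8a was at 0.0703 to 1.2 TPM and Cd3e at most 0.314 TPM. Nkg7 rose in KO mice and Cd4 fell in old mice. All 5 erythroid markers fell in KO mice and 3 fell in old mice, with sums of 51.2 to 348.1 TPM in KO and 213.2 to 648.2 TPM in WT libraries. Sums of the B cell (359.3 to 1357 TPM), granulocyte and monocyte (20.4 to 819.1 TPM), mast cell and basophil (24.6 to 132.3 TPM), megakaryocyte (83.0 to 160 TPM) and stromal (28.3 to 54.7 TPM) lists overlapped between genotypes. Within them the mast cell genes Cma1 (0.456 to 1.32 TPM in KO, 3.72 to 28.2 TPM in WT) and Tpsb2 (0.17 to 2.47 TPM in KO, 6.59 to 38.1 TPM in WT) and the myeloid gene Itgam fell in KO mice, and the basophil gene Fcer1a rose in old mice. The part of other cells in the results was not tested. Both mice of the old litter of batch 1 had Xist, the RNA of the inactive X chromosome, at 3.33 and 3.61 TPM, against at most 0.0612 TPM in the other 6 libraries, and their Ddx3y, a Y-linked gene, was at 0.0229 and 0.225 TPM against at least 23.0 TPM. Libraries also differed in how levels ran with transcript length, with a slope of log2(TPM + 1) on log2 length of -0.88 to -0.61 in KO and -0.57 to -0.27 in WT libraries. The old KO library of batch 1 lay at the low end and the young WT library of batch 2 at the high end.

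The levels of the members spanned a wide range (means over the 8 libraries with SD, n = 8). Ctcf stood first at 250.6 ± 43.0 TPM, followed by the ring arms Smc1a at 133.8 ± 24.4 TPM and Smc3 at 65.2 ± 7.94 TPM. These 3 genes kept this order in all 8 libraries, and Smc3 was above Wapl in all 8. In the middle came Wapl (51.4 ± 11.5 TPM), Pds5a (41.8 ± 18.1 TPM), Stag1 (32.8 ± 9.99 TPM) and Stag2 (29.5 ± 16.7 TPM), where neighbours exchanged places in some libraries: Wapl was above Pds5a in 7, Pds5a above Stag1 in 6 and Stag1 above Stag2 in 6. Rad21, the subunit that closes the ring, was at only 18.1 ± 5.74 TPM. It was above the next gene, Pds5b (16.5 ± 6.49 TPM), in 3 of 8 libraries, so these neighbours did not differ beyond their spread. The loader Nipbl was lowest of the 10 in every library, at 7.41 ± 1.48 TPM.

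**Figure D1:**
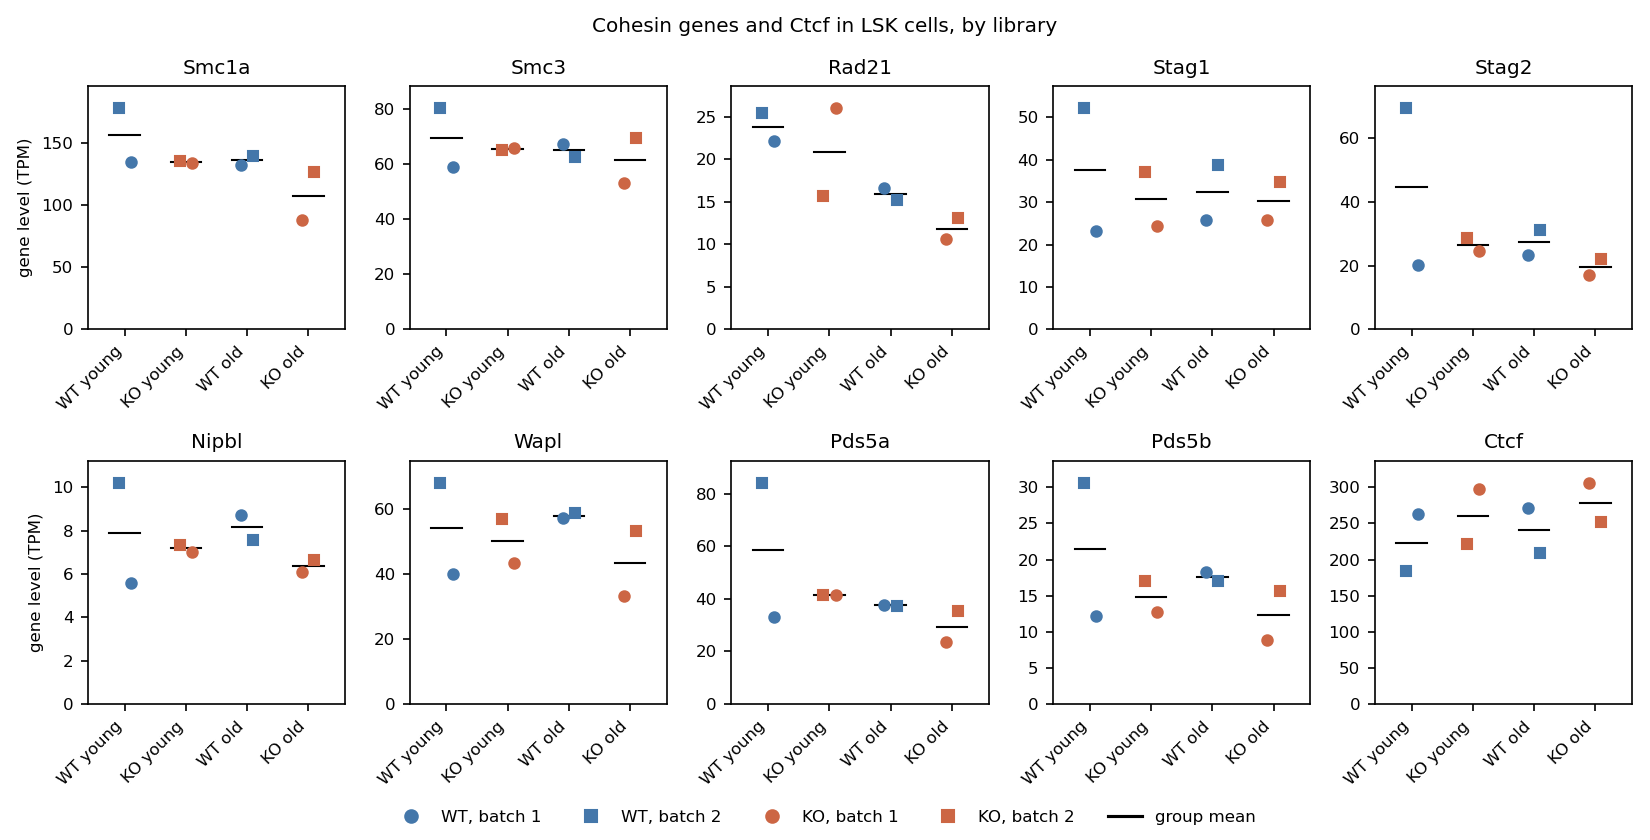
Gene level in TPM (y axis, linear from 0) of each of the 10 genes in the 8 libraries, by group (x axis); circles are batch 1, squares batch 2, and bars the mean of the 2 mice. The young WT library of batch 2 is the highest of the 8 for 8 of the genes and the lowest for Ctcf; groups overlap in every panel when the 4 KO libraries are set against the 4 WT or the 4 old against the 4 young.

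Several of the genes had a like pattern across the 8 libraries. Smc1a, the ring arm, was at 135 and 178 TPM in young WT, 134 and 136 TPM in young KO, 133 and 140 TPM in old WT, and 88.0 and 127 TPM in old KO mice. Stag2, the subunit mutated in leukemia, was at 20.1 and 69.4 TPM in young WT, 24.5 and 28.5 TPM in young KO, 23.3 and 31.2 TPM in old WT, and 17.1 and 22.2 TPM in old KO mice. Pds5b was at 12.2 and 30.6 TPM in young WT, 12.7 and 17.0 TPM in young KO, 18.3 and 17.0 TPM in old WT, and 8.90 and 15.6 TPM in old KO mice. In all 3 genes the young WT library of batch 2 was the highest and the old KO library of batch 1 the lowest, and the other 6 libraries lay between them. The mean of the 10 members, each standardised on log2(TPM + 1), was 1.39 in the first and -1.14 in the second of these libraries and between -0.48 and 0.15 in the other 6. These are the same libraries that lay at the ends of the length slope, and the part of transcript length in this pattern was not tested apart from the fits given below.

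Pearson's r of each gene with the mean of the other 9 over the 8 libraries was 0.97 for Pds5a, 0.96 for Pds5b, 0.93 for Smc3, 0.92 for Stag2, 0.90 for Smc1a, 0.84 for Nipbl and Wapl, 0.67 for Stag1 and 0.52 for Rad21. These values describe 8 libraries whose depth and length slope are shared by all genes. Outside the members, the 5 protein-coding genes with a mean of at least 5 TPM whose pattern was most like the members' mean were Cdk19 (r = 0.99), Xrn2 (r = 0.99), Ppip5k2 (r = 0.99), Nhlrc3 (r = 0.99) and Ankib1 (r = 0.99). Of the 9823 genes compared in this way, 884 (9.0%) had r above 0.9, so a likeness of this size was common.

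Ctcf went the other way at the gene level, with r = -0.83 against the mean of the other 9. It was at 264 and 183 TPM in young WT, 297 and 222 TPM in young KO, 271 and 209 TPM in old WT, and 306 and 251 TPM in old KO mice. The KO mouse was above its WT littermate in 4 of 4 litters and the batch 1 library above the batch 2 library in every group, but KO and WT libraries overlapped. The gene's TPM was mostly a single short transcript. Ctcf-202, annotated as a processed transcript without a coding sequence and 528 bases long, held 73.4% of the gene's TPM but 21.0% of its estimated counts, whereas the protein-coding Ctcf-201 of 3782 bases held 19.8% of the TPM and 72.7% of the counts. Of the 528 bases, 498 lie in exons of Ctcf-201 and 372 in its coding sequence, so few reads can tell the transcripts apart. The 30 bases that Ctcf-202 does not share with Ctcf-201 are its first exon, chr8:105636935-105636964 of GRCm38 (mm10), plus strand. They are shown here because they and the junction that follows set Ctcf-202 apart from Ctcf-201. Other transcripts of Ctcf were not compared, and how reads were split was not tested.
Ctcf-202 exon 1: cgcccgctaagcttccctcctcccaacatg

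Ctcf-202 was at 197 and 92.6 TPM in young WT, 232 and 161 TPM in young KO, 199 and 150 TPM in old WT, and 248.5 and 192 TPM in old KO mice. The coding transcript Ctcf-201 was at 45.2 and 69.98 TPM in young WT, 48.5 and 48.2 TPM in young KO, 52.5 and 45.3 TPM in old WT, and 39.9 and 46.7 TPM in old KO mice. The 2 transcripts ran opposite in 2 libraries, those at the ends of the length slope. The young WT library of batch 2 was the lowest for the short and the highest (69.98 TPM) for the coding transcript. The old KO library of batch 1 was the reverse. The other libraries, at 150 to 232 TPM for the short and 45.2 to 52.5 TPM for the coding transcript, had no clear opposite order. With only protein-coding transcripts summed, Ctcf fell to the third place of the 10 at 49.5 ± 9.01 TPM (SD, n = 8), and its r with the other 9 became 0.96. The order of Ctcf among the members and the sign of its likeness to them therefore depended on this transcript. Reads of Ctcf can also be shared with Agrp and Gm5914, which overlap its exons on the opposite strand by 114 and 235 bases, since strand use was not given in the sources used here.

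Old and young mice were compared over both genotypes to ask what changes with age whatever the genotype, in a model with genotype, age and batch fitted to the estimated counts of all genes. The ring-closing subunit Rad21 and the Wapl partner Pds5a fell in old mice, and the other 8 members did not pass. Rad21 was at 22.2 and 25.4 TPM in young WT, 26.0 and 15.7 TPM in young KO, 16.6 and 15.2 TPM in old WT, and 10.6 and 13.0 TPM in old KO mice. Both old KO libraries were the lowest of the 8, and the highest old library (16.6 TPM) overlapped the lowest young one (15.7 TPM). Rad21 fell by 0.73 on the log2 scale with age (SE 0.18, 95% interval -1.12 to -0.35, adjusted p = 0.0292 by edgeR's quasi-likelihood test with Benjamini-Hochberg adjustment over 25543 genes), from 22.3 ± 4.75 to 13.9 ± 2.61 TPM (SD, n = 4). In a bulk sample, fewer cells with a transcript and less of it per cell cannot be told apart.

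Pds5a was at 33.2 and 84.2 TPM in young WT, 41.6 and 41.5 TPM in young KO, 37.8 and 37.4 TPM in old WT, and 23.5 and 35.3 TPM in old KO mice. A single young WT library stood high, the other 3 young libraries were between 33.2 and 41.6 TPM, and the old libraries overlapped them. Pds5a fell by 0.63 on the log2 scale (SE 0.18, 95% interval -1.02 to -0.24, edgeR adjusted p = 0.0426), from 50.1 ± 23.1 to 33.5 ± 6.74 TPM (SD, n = 4). Exons of Gm42727 and Gm42729 on the opposite strand overlap those of Pds5a by 146 and 119 bases.

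These calls made 2 of 10 members, against 13.9% of all genes called in either direction and 9.61% called lower (4.34% higher), and TPM of old and young libraries overlapped for all 10 members, against 6.14% of all genes without overlap. All 10 estimates were below 0, with a median of -0.29 against 0.15 over all genes. Protein-coding genes in deciles 8 to 10 of length, which hold 9 of the members, had lower medians, at -0.46, -0.52 and -0.56. In these deciles 42.5% to 49.9% of genes were called lower. Among the members that did not pass, Stag2 was at -0.59 (adjusted p = 0.066), Stag1 at -0.49 (0.0904), Pds5b at -0.32 (0.185) and Smc1a at -0.26 (0.144), all by edgeR. The other 4 ran from -0.15 in Ctcf to -0.08 in Nipbl. Stag2 and Stag1 sit in the same place on the ring, and for both the 95% interval lay below 0 (-1.03 to -0.15 and -0.90 to -0.07) although the adjusted p missed the threshold. Such an interval goes with an unadjusted p under 0.05, which 4 of 10 members and 37.27% of all genes had with age, so it was common.

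Each age holds 2 litters of 2 littermates, and the fit takes littermates as independent mice: litter was not a term in any comparison of ages. The litter with Xist is old, and no young library had Xist above 0.0612 TPM. Sex, as Xist and Ddx3y mark it, was not a term in any fit, so it is partly mixed with age here. Its part in the results, also for the X-linked Smc1a and Stag2, was not tested. The calls with age rested on few libraries. Rad21 passed in 8 and Pds5a in 6 of 21 alternative analyses. Leaving out the old KO library of batch 1 (edgeR adjusted p = 0.133 for Rad21, 0.152 for Pds5a), that of batch 2 (0.0771, 0.117), the young KO library of batch 1 (0.12, 0.189), the old WT library of batch 1 (0.0869, 0.0813) or the young WT library of batch 2 (0.0797, 0.131) ended both calls, and without the old WT library of batch 2 Rad21 passed (0.0316) and Pds5a did not (0.0761). In those first 5 fits between 0.191% and 1.23% of all genes passed, and without the old WT library of batch 2 16.9% did. Without the young WT library of batch 1, 5 of 10 members passed (19.1% of all genes), and without the young KO library of batch 2, 3 did (12.7%). Within batches, Rad21 changed by -0.99 in batch 1 (adjusted p = 0.0374) and by -0.46 in batch 2 (0.27), and Pds5a by -0.51 in batch 1 (0.279) and by -0.70 in batch 2 (0.0275), by edgeR with 1 mouse of each group. Without the litter with Xist, Rad21 was at -0.40 (edgeR adjusted p = 0.546) and Pds5a at -0.66 (0.423), where 0.181% of all genes passed. DESeq2 called 4 members (Rad21, Pds5a, Stag2 and Stag1, named after their values were seen) and 26.4% of all genes, and limma on log2(TPM + 1) called 0 and 0.351%, with Rad21 at -0.64 (adjusted p = 0.0893).

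**Figure D2:**
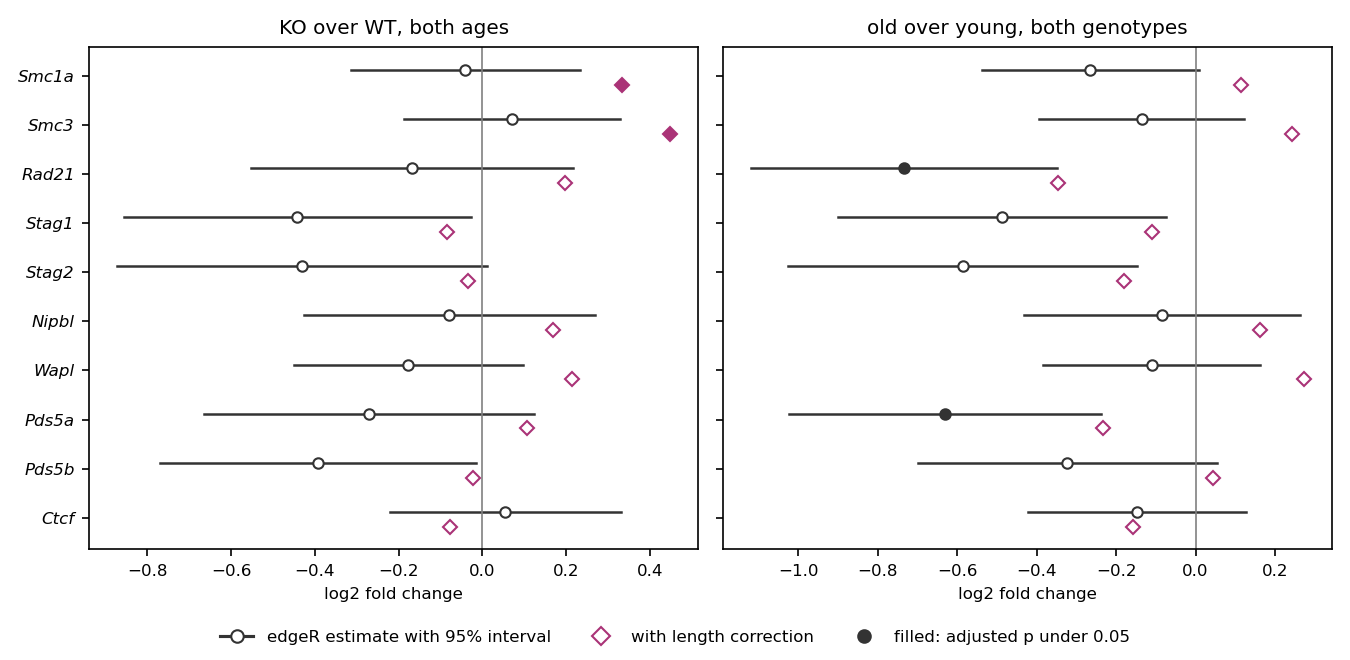
Log2 fold change (x axis) of each member (y axis), KO over WT on the left and old over young on the right; circles are edgeR estimates with their 95% intervals and diamonds the estimates after the length correction, filled where the adjusted p is under 0.05. Only Rad21 and Pds5a are filled without the correction, both with age, and only Smc3 and Smc1a with it, both with genotype.

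KO and WT mice were compared over both ages to ask which members depend on Asxl2. None passed: 0 of 10 members were called, against 9.98% of all genes, 6.78% lower and 3.19% higher (4.55% with litter as a block, again with 0 members), with 2 members at an unadjusted p under 0.05 (29.15% of all genes). DESeq2 and limma also called 0 members, against 21.1% and 16% of all genes. TPM of KO and WT libraries overlapped for all 10 members, against 9.89% of all genes without overlap. The estimate was below 0 for 8 members and above 0 for Smc3 and Ctcf, with a median of -0.17 against 0.10 over all genes. Protein-coding genes in deciles 8 to 10 of length had medians of -0.39 to -0.45, with 23.2% to 32% of them called lower. The lowest were Stag1 at -0.44 (95% interval -0.86 to -0.03, edgeR adjusted p = 0.148), Stag2 at -0.43 (-0.87 to 0.01, 0.181) and Pds5b at -0.39 (-0.77 to -0.02, 0.156).

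The ring arms and Ctcf had estimates near 0. Smc3 was at 58.7 and 80.2 TPM in young WT, 65.5 and 64.9 TPM in young KO, 67.3 and 62.5 TPM in old WT, and 53.1 and 69.3 TPM in old KO mice. The groups overlapped fully, and the difference was 0.07 (95% interval -0.19 to 0.33). Smc1a was at -0.04 (-0.31 to 0.23) and Ctcf at 0.05 (-0.22 to 0.33). These intervals hold for the fit without the length correction, which moved Smc3 to 0.45 and Smc1a to 0.33, outside them. For Wapl the estimate was -0.18 (-0.45 to 0.10), for Pds5a -0.27 (-0.66 to 0.12), for Rad21 -0.17 (-0.55 to 0.22) and for Nipbl -0.08 (-0.43 to 0.27).

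Stag1, the alternative to Stag2 on the ring, was at 23.2 and 52.2 TPM in young WT, 24.4 and 37.2 TPM in young KO, 25.7 and 38.9 TPM in old WT, and 25.9 and 34.8 TPM in old KO mice. Its batch 2 library was the higher in each group, and KO and WT libraries overlapped. Within batch 2 alone, with 1 mouse of each group, 2 members passed by edgeR, Stag1 at -0.74 (adjusted p = 0.00753) and Stag2 at -0.80 (0.00227), where 26.8% of all genes passed. Within batch 1 they were at -0.20 (0.963) and -0.12 (0.98), where 0.817% of all genes passed. Without the young WT library of batch 1, 3 members passed with genotype, against 17.8% of all genes: Stag1 at -0.63 (edgeR adjusted p = 0.015), Stag2 at -0.65 (0.0144) and Pds5b at -0.57 (0.0182). That library had the lowest WT level in each of these 3 genes.

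Within an age or a genotype no member passed by edgeR, and few genes of any kind did. KO against WT called 0 of 10 members in old mice (0.65% of all genes) and 0 in young mice (0.0626%), with 0 members at an unadjusted p under 0.05 in either (21.16% and 9.459% of all genes). Old against young called 0 in KO mice (0.0861% of all genes), with 1 member at an unadjusted p under 0.05 (24.37% of all genes), and 0 in WT mice (0.0861%), with 2 (13.87%). The interaction of genotype and age, the test of whether KO changes a gene differently in old and young mice, called 0 of 10 members (0.00391% of all genes, 0 members at an unadjusted p under 0.05). Estimates of the interaction lay between -0.23 in Wapl and 0.21 in Ctcf. DESeq2 called 1 member, Rad21, in old against young KO mice (13.9% of all genes) and 0 in the other 4 comparisons, KO against WT in old mice (13.1%) among them. Limma called 0 members in all 5, with at most 9.36% of all genes.

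The age estimates of the 2 called genes were below 0 in both genotypes. Rad21 was at -0.80 in KO (SE 0.27, edgeR adjusted p = 0.135) and -0.67 in WT mice (SE 0.26, 0.331), and Pds5a at -0.58 (SE 0.27, 0.21) and -0.68 (SE 0.27, 0.331). Their interaction estimates were -0.12 (SE 0.37) for Rad21 and 0.11 (SE 0.38) for Pds5a, both with an adjusted p of 1. SEs of this size are too wide to show that the 2 genotypes change alike. Pds5a was at 33.2 and 84.2 TPM in young WT and 37.8 and 37.4 TPM in old WT mice. Its age estimate in WT mice ran from -1.14 to 0.03 over 19 alternatives. Comparisons within an age or genotype share libraries with each other.

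The balance between genes that take each other's place was compared as a log2 ratio of TPM within a library. Stag2 over Stag1 was -0.21 and 0.41 in young WT, 0.01 and -0.39 in young KO, -0.15 and -0.32 in old WT, and -0.60 and -0.65 in old KO mice. The ratio was lowest in the 2 old KO libraries and highest in the young WT library of batch 2. It differed by -0.34 between KO and WT (-0.41 ± 0.30 against -0.06 ± 0.32, SD, n = 4; two-sided exact permutation p = 0.171, adjusted 0.343 over 6 tests) and by -0.38 between old and young mice (exact p = 0.143, adjusted 0.343). With estimated counts in place of TPM these differences were 0.01 and -0.09. Pds5a over Pds5b was 1.19 ± 0.15 in old and 1.48 ± 0.18 in young mice (SD, n = 4), a difference of -0.29 (exact p = 0.0571, adjusted 0.343), and it differed by 0.12 between KO and WT (exact p = 0.543, adjusted 0.814). Nipbl over Wapl, loader over release factor, differed by 0.05 with genotype (exact p = 0.771, adjusted 0.926) and by 0.01 with age (exact p = 0.943). None of the 6 passed, where 4 against 4 libraries cannot give a p below 0.0286. Pds5a over Pds5b with age reached this p with protein-coding transcripts only and with estimated counts in place of TPM. Its adjusted p was still 0.171 in both (exact permutation). A single ratio thus could not pass over 6 tests, and these tests cannot show that the balance was unchanged.

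Transcript length moved with both comparisons and with the members, which are long. Of the 10 members, 9 were among the longest 30% of protein-coding genes by effective length, from 2918 bases in Stag1 to 8545 bases in Nipbl. Ctcf was in decile 2 at 942 bases, because its effective length is weighted by the TPM of the short transcript. The median log2 fold change of protein-coding genes ran from 0.42 in the shortest decile to -0.45 in the longest for KO over WT, and from 0.21 to -0.56 for old over young. In the longest decile, 42.5% of genes were called lower in old mice.

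**Figure D3:**
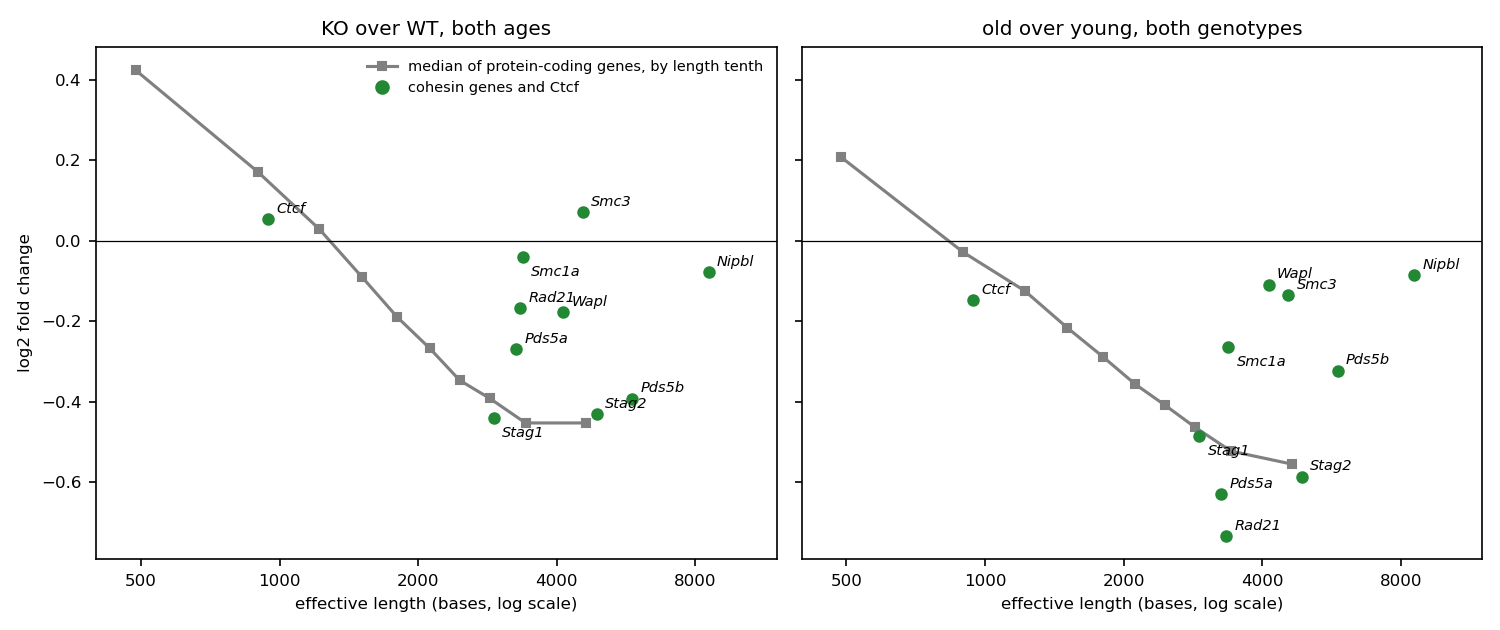
Log2 fold change (y axis) against effective length in bases (x axis, log scale), KO over WT on the left and old over young on the right; grey squares are medians of protein-coding genes in deciles of length and green points the 10 members. The median falls from 0.42 to -0.45 on the left and from 0.21 to -0.56 on the right; Smc1a, Smc3, Nipbl, Wapl and Pds5b lie above the median of their decile in both panels.

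A fit that removed each library's smooth trend of counts with length gave other calls. Ctcf entered it as a gene of 942 bases, although the 3782-base Ctcf-201 held 72.7% of its counts. With age, 0 of 10 members passed (1.46% of all genes passed), and Rad21 was at -0.35 (edgeR adjusted p = 0.117) and Pds5a at -0.23 (0.206). With genotype, 2 members passed, against 5.50% of all genes, and both were higher in KO: Smc3 at 0.45 (SE 0.09, adjusted p = 0.0331) and Smc1a at 0.33 (SE 0.08, 0.0414), the arms of the ring. With litter as a block in the same fit Smc3 passed (0.0406) and Smc1a did not (0.0595). The median of the 10 members became 0.14 with genotype and -0.03 with age, against 0.13 and 0.21 over all genes. Without the 2 libraries at the ends of the length slope, 0 members passed in either comparison by edgeR, where 0.485% and 0.248% of all genes passed.

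Mau2, the partner that Nipbl needs to load cohesin, fell in KO mice although Nipbl did not pass. Mau2 was at 33.3 and 52.1 TPM in young WT, 27.4 and 26.9 TPM in young KO, 34.1 and 30.6 TPM in old WT, and 15.3 and 17.1 TPM in old KO mice. All 4 KO libraries were below all 4 WT libraries, at 21.7 ± 6.39 against 37.5 ± 9.81 TPM (SD, n = 4). Of all genes, 9.89% had no overlap between KO and WT libraries in either direction. It fell by 0.66 on the log2 scale with genotype (SE 0.14, edgeR adjusted p = 0.0223, and 0.0421 with litter as a block) and changed by -0.60 with age (SE 0.14, adjusted p = 0.0267). With the length correction neither call held, at -0.29 (0.0899) and -0.23 (0.132). The genotype call held without the young KO library of batch 1 (0.0124) or the young WT library of batch 1 (0.00223) and was lost without any other library, with adjusted p from 0.0551 to 0.1. The age call held without the old WT library of batch 2 (0.0319) or the young WT library of batch 1 (0.00315) and was lost without any other, with adjusted p from 0.0503 to 0.137. Nipbl itself was at 5.61 and 10.2 TPM in young WT, 7.03 and 7.35 TPM in young KO, 8.75 and 7.59 TPM in old WT, and 6.10 and 6.63 TPM in old KO mice, and the 4 KO libraries overlapped the 4 WT libraries.

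Among 16 other regulators of cohesin, which include the acetyltransferases Esco1 and Esco2, the deacetylase Hdac8, separase (Espl1) and sororin (Cdca5), 1 fell in KO mice (Mau2) and 2 fell in old mice (Mau2 and Chtf18), and 0 rose in either, where 6.78% and 9.61% of all genes fell. DESeq2 called 5 and 8 of the 16 lower. With 1 library left out edgeR called 0 to 4 lower with genotype and 0 to 7 with age, the most in each without the young WT library of batch 1. Chtf18, part of the clamp loader that aids cohesion at replication forks, fell by 0.67 (SE 0.14, edgeR adjusted p = 0.0223, 0.0773 with the length correction). The median of the 16 was -0.06 with genotype and -0.39 with age, against 0.10 and 0.15 over all genes. Of 7 genes listed as other looping and insulator factors, 1 fell in KO mice and 4 in old mice. The list was set by name, and a part of Zfp128 in looping was not examined here. The zinc finger gene Zfp128 fell in KO mice (log2 -0.62, edgeR adjusted p = 0.048, lost at 0.0801 with litter as a block and at 0.191 with the length correction). With age, Adnp (-0.68, adjusted p = 0.0394), Maz (-0.64, 0.0219), Zfp128 (-0.60, 0.0439) and Zfp143 (-0.53, 0.0454) fell, and Maz, a zinc finger factor found at loop anchors, also passed with the length correction (-0.44, 0.045).

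Related complexes were counted in the same way. Of 8 condensin subunits, which compact chromosomes for division, 0 passed with genotype (1 by DESeq2) and 5 fell with age (9.61% of all genes, and 42.5% to 49.9% of those in the 3 longest deciles), with Ncapg2 at -0.85 (edgeR adjusted p = 0.0341), Ncapd3 at -0.82 (0.0349), Ncapd2 at -0.73 (0.0287) and Ncaph2 at -0.48 (0.0287). None of the 5 passed with the length correction. Of 6 genes of the Smc5 and Smc6 complex, another relative of cohesin that acts in DNA repair, 0 passed with genotype and Smc5 fell with age (-0.43, edgeR adjusted p = 0.0469, 0.555 with the length correction). For the members, the regulators, condensin and the looping factors alike, 0 were called lower with age when any of the 5 libraries that ended the Rad21 and Pds5a calls was left out. The 8 cycling-cell markers, which accompany condensin in dividing cells, summed to 1020 to 1500 TPM in old and 1303 to 1492 TPM in young libraries, and 0 of them were called lower with age. All 8 estimates were below 0, with a median of -0.26, and 2 of the 8, Cdk1 and Birc5, were called higher in KO.

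Of the 5 germline relatives, 1 fell with age and 0 rose. Stag3, the Stag subunit of meiotic cohesin, was at 5.82 and 13.8 TPM in young WT, 4.17 and 5.10 TPM in young KO, 1.91 and 2.67 TPM in old WT, and 1.13 and 3.22 TPM in old KO mice. All 4 old libraries were below all 4 young ones, where 6.14% of all genes had no overlap in either direction. It fell by 1.60 on the log2 scale with age (SE 0.24, edgeR adjusted p = 0.0123), from 7.21 ± 4.42 to 2.23 ± 0.907 TPM (SD, n = 4). With the length correction Stag3 was at -1.28 (edgeR adjusted p = 0.0271). It passed in 15 of 21 alternatives and in 7 of the 8 fits that leave out a library, the exception being the young KO library of batch 1 (adjusted p = 0.0728). Without the litter with Xist the value was -1.73 (0.0921). The other 4 of the 5 germline genes, Smc1b, Rec8, Rad21l and Ctcfl, did not pass in either comparison. With age Rad21l was at 1.89 (edgeR adjusted p = 0.139), Ctcfl at 1.61 (0.0989), Smc1b at 1.30 (0.0544) and Rec8 at 0.27 (0.32), and of these only Rec8 was above 1 TPM on average.

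The DNA around the start sites of the members was searched for short motifs. RefSeq promoters (GRCm38.p6, windows of 300 bases around the start) were at hand for 7 of the 10 members: Smc1a, Smc3, Stag1, Wapl, Pds5a, Pds5b and Ctcf. On either strand, GGGCGG, the box of Sp1 factors, was in 7 of 7 against 35.7% of all 32851 promoters in the table. CCAAT, the box of NF-Y, was in 4 of 7 against 37.4%, and TTTNNCGC, the E2F box, in 3 of 7 (Smc1a, Stag1 and Pds5a) against 5.17%. The ETS box CCGGAAG, the NRF1 box and the core of the CTCF motif were in 0 of 7, against 8.86%, 0.971% and 0.371%. A match describes the letters only and is not a site. The 120 bases before the start are printed for Stag1 (chr9:100643328-100643447, plus strand), Pds5a (chr5:65698274-65698393, minus strand) and Smc1a (chrX:152016308-152016427, plus strand), since these hold the E2F box in their promoter; capitals mark the E2F, CCAAT and GGGCGG matches on either strand in Stag1, the E2F match in Pds5a and the CCAAT match in Smc1a. The matches marked in these bases do not overlap each other. The Stag1 bases lie inside the gene span given above, since the RefSeq start used is downstream of the first annotated start.
Stag1 promoter: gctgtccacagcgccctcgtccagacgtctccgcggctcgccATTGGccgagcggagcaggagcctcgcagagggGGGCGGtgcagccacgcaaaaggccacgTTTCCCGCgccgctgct
Pds5a promoter: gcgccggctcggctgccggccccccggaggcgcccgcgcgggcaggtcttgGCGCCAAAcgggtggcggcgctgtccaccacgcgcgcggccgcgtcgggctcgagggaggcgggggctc
Smc1a promoter: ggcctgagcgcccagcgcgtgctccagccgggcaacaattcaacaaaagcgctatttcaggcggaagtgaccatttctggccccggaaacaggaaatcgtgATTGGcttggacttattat

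The E2F match of Smc1a lies outside the bases shown. With age Pds5a was at -0.63, Stag1 at -0.49 and Smc1a at -0.26. Of the members searched that lack the E2F box, Pds5b was at -0.32, Ctcf at -0.15, Smc3 at -0.13 and Wapl at -0.11. Rad21 (-0.73), Stag2 (-0.59) and Nipbl (-0.08) were not searched. A link between the motif and the change with age was not tested.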

How the data were processed

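Per the labels, polyA RNA of LSK cells from 8 mice was amplified with a SMART-Seq v4 kit. Per the submitters' processing notes, kallisto, the mm10 build and DESeq2 were used, with no versions. The deposited tables hold, per the file headers, estimated counts, TPM and effective lengths for 115088 transcripts of each library. Of these, 114200 were matched by identifier to GENCODE vM21 (GRCm38, the mm10 build) and summed to 47311 genes. The other 888 (0.259% to 0.47% of counts) were left out. Estimated counts were rounded to whole numbers after summing. TPM were summed unrounded. Libraries held 45737972 to 80388500 estimated counts, and the part of depth in the precision was not tested. The labels name separate mice, and p-values measure the spread between these 8.

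Genes were kept with filterByExpr (minimum count 10, minimum total 15), scaled by TMM and tested with edgeR 4.0.16 (R 4.3.3) quasi-likelihood tests, adjusted by Benjamini and Hochberg over 25543 genes with 0.05 as the threshold. Genotype, age and batch gave the comparisons over both ages or genotypes (4 residual degrees of freedom), and the 4 groups with batch gave the others (3). Intervals use the SE and the degrees of freedom of the fit. Alternatives used DESeq2 1.42.0, limma 3.58.1 on log2(TPM + 1) and log2(TPM + 0.1), a spline of length (5 degrees of freedom) as an offset, batches alone and libraries left out. Ratios were tested by exact permutation with scipy 1.17.1. Pairing comes from the litter labels. Deviations of littermates from their group means correlated over genes at 0.145 in old and 0.301 in young mice, where litter and batch cannot be told apart. The members, the lists of related genes and the rule for naming genes (all members, Asxl2, Mau2, the 5 most alike genes and, per list and comparison, at most 4 of those that pass, by size of fold) were chosen with earlier results of these data known. Single marker genes and germline genes that did not pass were named after their values were seen. Overlap of TPM means that the ranges of the 4 libraries of each side meet.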

Additional observations from a re-analysis of the deposited data

Results flagged for a closer look

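In 40 sets of 4 libraries (each member in KO, WT, old and young libraries), the library furthest from the others was set against Dixon's 95% critical value. Chance alone picks out about 1 in 20 sets. The test picked out 5 sets, and in each the library that stood apart was the young WT library of batch 2. Smc1a was at 178 TPM there against 133 to 140 TPM in the other WT libraries and 134 to 136 TPM in the other young libraries. Stag2 was at 69.4 TPM against 20.1 to 28.5 TPM in the other young libraries. Pds5a was at 84.2 TPM against 33.2 to 37.8 TPM in the other WT and 33.2 to 41.6 TPM in the other young libraries. The same library had the length slope nearest to 0, at -0.27, and its part in these values was not tested. Without it, Pds5a changed with age by -0.45 (edgeR adjusted p = 0.131) in place of -0.63 (0.0426).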

How the results depend on the processing

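With 2 mice a group, no call of a member held under every analysis run. The numbers of members passing with genotype (0 of 10) became 2 within batch 2, 2 with the length correction, 1 with the length correction and litter as a replicate block (an analysis added after seeing the data), and 0 to 3 with 1 library left out. With genotype, 5.50% of all genes passed with the length correction, 2.44% with litter as a block added to it, and 17.8% where 3 members passed. Litter as a block alone gave 0 (4.55% of all genes) and changed no call of a member. With age (2 of 10) the numbers became 4 with DESeq2 (26.4% of all genes) and 4 without the filter on low counts (15.3%). They became 1 with protein-coding transcripts only (9.99%). They were 0 with the length correction (1.46%), with each of the 3 limma fits (at most 0.351%) and with no batch term (0.658%). They were also 0 without the Xist litter (0.181%) and without the 2 libraries at the ends of the length slope (0.248%), a pair chosen after seeing the data. Leaving out 1 library gave 0 to 5, the 5 without the young WT library of batch 1, where 19.1% of all genes passed. With age in KO mice (0 of 10), DESeq2 gave 1 (13.9% of all genes) and no filter 1 (6.96%). Leaving out 1 library there gave 0 to 3, the 3 without the young WT library of batch 2, where 13.1% of all genes passed. For genotype in young mice and age in WT mice, leaving out 1 library also moved the number, but those fits leave 1 mouse in a group. The cause was not tested.

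Signs turned as follows, for members that did not pass in the fit reported. With genotype and the length correction, Ctcf, corrected as a gene of 942 bases, was at -0.08. Nipbl was at 0.17, Pds5a at 0.11, Rad21 at 0.20, Smc1a at 0.33 and Wapl at 0.21. With litter as a block added the same genes, in this order, were at -0.07, 0.17, 0.11, 0.19, 0.33 and 0.21. Without the 2 libraries at the ends of the length slope, Nipbl was at 0.15, Pds5a at 0.18, Pds5b at 0.05, Rad21 at 0.09, Smc1a at 0.11, Stag2 at 0.02 and Wapl at 0.03. Within batch 1 Nipbl was at 0.07 and Smc1a at 0.06, and within batch 2 Ctcf at -0.12 and Smc3 at -0.04. Without the Xist litter Nipbl was at 0.03 and Smc1a at 0.0025, and with protein-coding transcripts at 0.04 and 0.14. Smc3 was at -0.08, -0.09 and -0.08 in the limma fits with a pseudocount of 1, of 0.1 and with no filter. With 1 library left out, Ctcf ran from -0.00 to 0.13, Nipbl from -0.24 to 0.05 and Smc1a from -0.13 to 0.06.

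With age and the length correction, Nipbl was at 0.16, Pds5b at 0.04, Smc1a at 0.11, Smc3 at 0.24 and Wapl at 0.27. Without the 2 libraries at the ends of the slope, Ctcf was at 0.02, Nipbl at 0.17, Pds5b at 0.15, Smc3 at 0.07 and Wapl at 0.13. Within batch 1 Nipbl was at 0.08, and with protein-coding transcripts Nipbl was at 0.12, Smc3 at 0.07 and Wapl at 0.09. Ctcf was at 0.11 in the 3 limma fits. Wapl ran from -0.22 to 0.03 with 1 library left out. Rad21, Pds5a, Stag1 and Stag2 stayed below 0 with age in all 21 alternatives, as did Stag1 with genotype in all 23. The ratio of Stag2 to Stag1 differed between KO and WT by 0.01 with estimated counts in place of TPM. That of Nipbl to Wapl ran from -0.05 to 0.13 with genotype and from -0.10 to 0.08 with age when 1 library was left out.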

Other observations

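Transcripts marked for decay made up part of the RNA of 2 ring genes, and both were scarce in the old KO library of batch 1. Smc1a-206, annotated as a target of nonsense-mediated decay and 1824 bases long, was at 50.3 and 58.7 TPM in young WT, 35.1 and 53.9 TPM in young KO, 41.6 and 57.2 TPM in old WT, and 8.07 and 47.65 TPM in old KO mice. All of its bases lie in exons of the protein-coding Smc1a-201, which was at 78.2 TPM in that library and at 77.1 to 113 TPM over all 8. The gene level of Smc1a there was 88.0 TPM. With protein-coding transcripts only, Smc1a changed by 0.14 with genotype (edgeR adjusted p = 0.404) in place of -0.04.

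Stag1-203, also annotated for decay and 4800 bases long, was chosen after its values were seen. It was at 3.34 and 12.3 TPM in young WT, 0.743 and 5.87 TPM in young KO, 5.11 and 5.72 TPM in old WT, and 0.188 and 2.50 TPM in old KO mice, and the KO mouse was below its WT littermate in 4 of 4 litters, while KO and WT libraries overlapped. It held 20.1% of the estimated counts of Stag1. Another transcript of Stag1, the 583-base Stag1-207, held 36.6% of the gene's TPM and 4.05% of its counts, and 534 of its bases lie in exons of the 6186-base Stag1-206. How reads were split between such transcripts was not tested.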
